A study of Sus scrofa with 18 samples.

Results

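The comparison sets exosomes from HC-L muscle against exosomes from HC-P muscle. Members were chosen by the labels alone: the 6 exosome libraries, 3 per muscle, out of 12 small RNA libraries and 18 samples in the series, with every miRNA row of the deposited table. All animals were adult Hechuan black pigs, a Chinese breed, labelled as castrated sows. Both groups share the same preparation: muscle was minced and homogenised, and vesicles were enriched by differential centrifugation, a fine filter and a commercial kit, so they come from whole muscle and not from a cultured cell type. A second label for exosomes of HC-P muscle is Y-Exo. The study as titled concerns oxidative and glycolytic muscle and miR-4331-3p, but no label assigns a fibre type to either muscle. Nor is it given whether the replicates are separate pigs, so p-values measure only the spread between these libraries.

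miRNAs are short RNAs that guide silencing proteins to complementary messenger RNAs and lower their translation and stability. Exosomes are small vesicles of endosomal origin that carry a portion of the miRNAs of the cells that release them. In muscle, a small group of muscle-enriched miRNAs, led by miR-1, miR-206 and the miR-133 family, dominates the miRNA pool and acts in the proliferation and differentiation of muscle precursor cells. In a bulk vesicle preparation, fewer vesicles from a cell type and less of an miRNA per vesicle cannot be told apart.

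Depth differed more within the muscles than between them. The HC-L exosome libraries held 674732, 631193 and 275361 miRNA reads, and the HC-P exosome libraries held 959599, 168341 and 106040 reads. The HC-P group thus contains both the deepest and the 2 shallowest libraries. A count of 0 allows up to 4.45, 4.75 and 10.9 CPM (counts per 1e+06 reads) in the HC-L libraries, against 3.13, 17.8 and 28.3 in the HC-P libraries (3 reads of each total, counting error only). Of the 465 miRNAs in the table, 363 had at least 1 read in an exosome library. They numbered 328 in HC-L exosomes, against 337 in HC-P exosomes, with 302 detected in both muscles. Drawn down to the pooled HC-P total of 1233980 reads, the expected number in HC-L exosomes, which hold 1581286 reads in all, was 318, against the 337 in HC-P exosomes. HC-P replicate 1 alone holds 959599 of the pooled HC-P reads. It detected 312 miRNAs, against 241 in each of HC-P replicates 2 and 3, so the pooled HC-P number rests mostly on that library.

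The exosomes of both muscles carried the same abundant miRNAs. By mean share of reads, 9 of the top 10 miRNAs of HC-L exosomes were also in the top 10 of HC-P exosomes (90% of each list), and 46 of the top 50 (92%). Each muscle's own top 50 took 98.07% of reads in HC-L exosomes, against 97.96% in HC-P exosomes. The top 10 lists differed by let-7i-5p, a let-7 family member, in HC-L and by miR-128, a miRNA abundant in brain and muscle, in HC-P.

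miR-1, the most abundant miRNA of striated muscle, took 50.7%, 56.7% and 28.2% of reads in the HC-L exosome libraries, against 43.0%, 48.3% and 35.8% in the HC-P exosome libraries. The groups overlapped, and replicate 3 was the lowest of each muscle. Means were 45.2% ± 15.1 in HC-L, against 42.4% ± 6.27 in HC-P (SD, n = 3 each; two-sided exact permutation test, p = 0.7, where 0.1 is the smallest p that 3 against 3 allows). miR-206, which is restricted to skeletal muscle, took 13.8%, 10.01% and 22.4% in HC-L exosomes, against 20.2%, 16.5% and 16.8% in HC-P exosomes. The HC-L values of miR-206 enclosed the HC-P values on both sides. miR-26a, known from mouse to favour myoblast differentiation, took 8.37%, 8.22% and 7.74% in HC-L, against 8.53%, 6.70% and 8.85% in HC-P, the steadiest of these abundant miRNAs. miR-148a-3p, also known from mouse muscle differentiation, took 4.96%, 4.10% and 5.79% in HC-L, against 3.37%, 4.10% and 6.36% in HC-P, again with overlap.

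**Figure D1:**
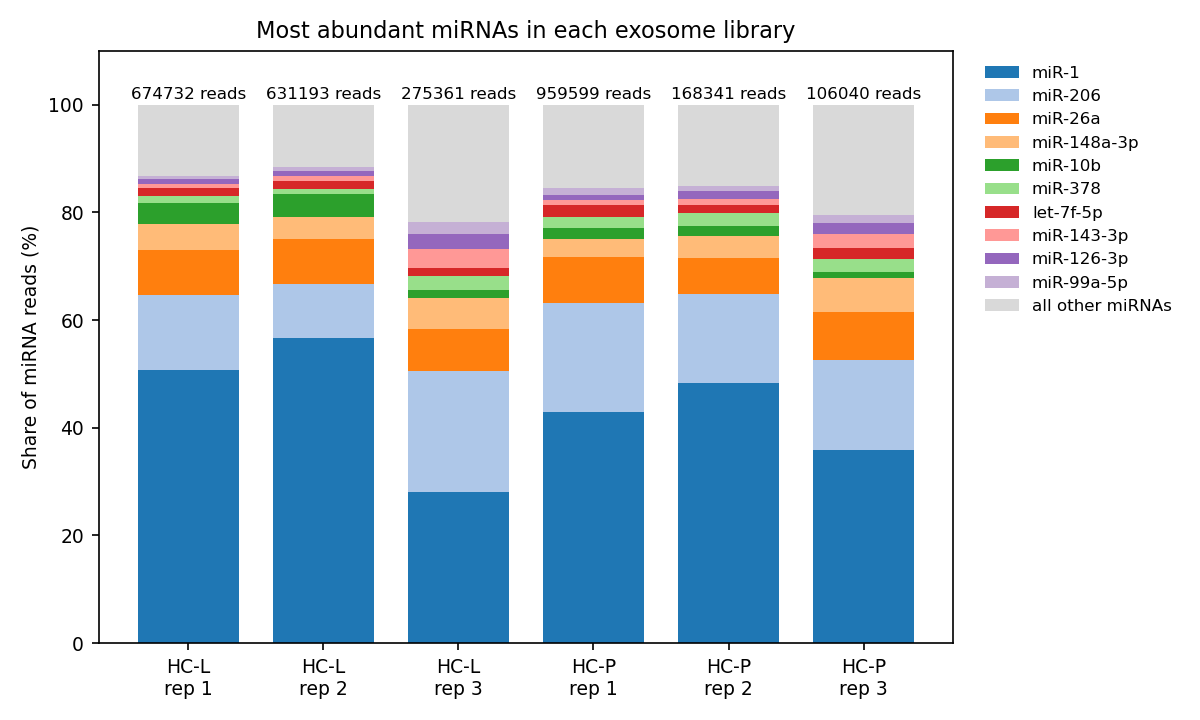
Stacked bars give the share of miRNA reads (%) of the 10 most abundant miRNAs and of all others in each exosome library, HC-L left and HC-P right, with the library total above each bar. miR-1 and miR-206 form the base of every bar, and replicate 3 of each muscle has the smallest miR-1 share (28.2% in HC-L, against 35.8% in HC-P).

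Library-level measures of composition overlapped between the muscles. Thinned to the smallest total of 106040 reads, the expected number of detected miRNAs was 213 ± 18.9 in HC-L, against 224 ± 15.8 in HC-P (p = 0.5, exact permutation test). It was lower in HC-L in each of the 3 same-numbered pairs, with differences of -3.48, -22.3 and -6.52 miRNAs (p = 0.25 by exact sign flips, the smallest that 3 pairs allow). The effective number of miRNAs, the exponential of the Shannon entropy, was 10.1 ± 4.64 in HC-L, against 10.7 ± 2.63 in HC-P (p = 0.8, exact permutation test). miRNAs predicted by the authors from the reads, without a miRBase name, took 0.0980% ± 0.130 in HC-L, against 0.0956% ± 0.0750 in HC-P (p = 1, exact permutation test). The 10 most abundant miRNAs of a library took 85.3% ± 4.91 in HC-L, against 84.2% ± 3.39 in HC-P (p = 0.7, exact permutation test). With miR-1, these were 5 comparisons, and every Benjamini-Hochberg adjusted p was 1.

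Libraries of the 2 muscles were about as alike as libraries of 1 muscle. Over the 154 miRNAs that passed the filter on low counts, Spearman's rho of log CPM lay between 0.870 and 0.946 for the 9 pairs across muscles (median 0.905). For the 6 pairs within a muscle it lay between 0.855 and 0.960 (median 0.917). These values are across miRNAs, which are not independent replicates, and pairs share libraries. The most alike pair was HC-L replicates 1 and 2, and the least alike was HC-P replicates 1 and 3, whose totals differ 9.05-fold.

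No miRNA met an adjusted p under 0.05 between HC-L and HC-P exosomes: edgeR's quasi-likelihood test called 0 of 154 (0%), with a smallest adjusted p of 0.322. At an unadjusted p under 0.05 there were 7 (4.55%), 4 with higher and 3 with lower values in HC-L. DESeq2, over the 363 miRNAs with any read, called 1, the predicted miRNA novel_509. The groups did not overlap in scaled CPM, which is CPM of the library size after TMM scaling, for 19 of 154 miRNAs (12.3%), 11 higher and 8 lower in HC-L. The median log2 fold change, HC-L over HC-P, was 0.07, and the median of the absolute values was 0.37. Of the 154 values, 85 were positive and 69 negative. Other scalings placed the median of all miRNAs between -0.08 and -0.05, so differences of that size depend on the scaling.

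A test that misses the threshold does not show equal levels, so the 95% intervals are given. For 17 of 154 miRNAs the interval lay wholly within a log2 difference of 1 in either direction, and for 110 it lay within 2. The narrowest was that of miR-27b-3p, an miRNA of muscle and vessel cells, with 3631, 3097 and 2838 reads in HC-L, against 5595, 952 and 892 reads in HC-P. Its log2 fold change was 0.20 (95% interval -0.44 to 0.84). miR-206 had a log2 fold change of -0.13 (-0.96 to 0.71) and endothelial miR-126-3p one of 0.05 (-0.71 to 0.81). miR-21-5p, raised in many injured tissues, had -0.03 (-0.88 to 0.81). For miR-1 the interval was wide, from -0.84 to 1.65 around 0.41, and for miR-128 wider still, from -2.10 to 1.38 around -0.36. miR-128 held 6705, 6650 and 2291 reads in HC-L, against 25910, 1275 and 489 in HC-P, so HC-P replicate 1 alone was far above the others, and without it the log2 fold change of miR-128 was 1.04 (unadjusted p = 0.0886 by edgeR).

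**Figure D2:**
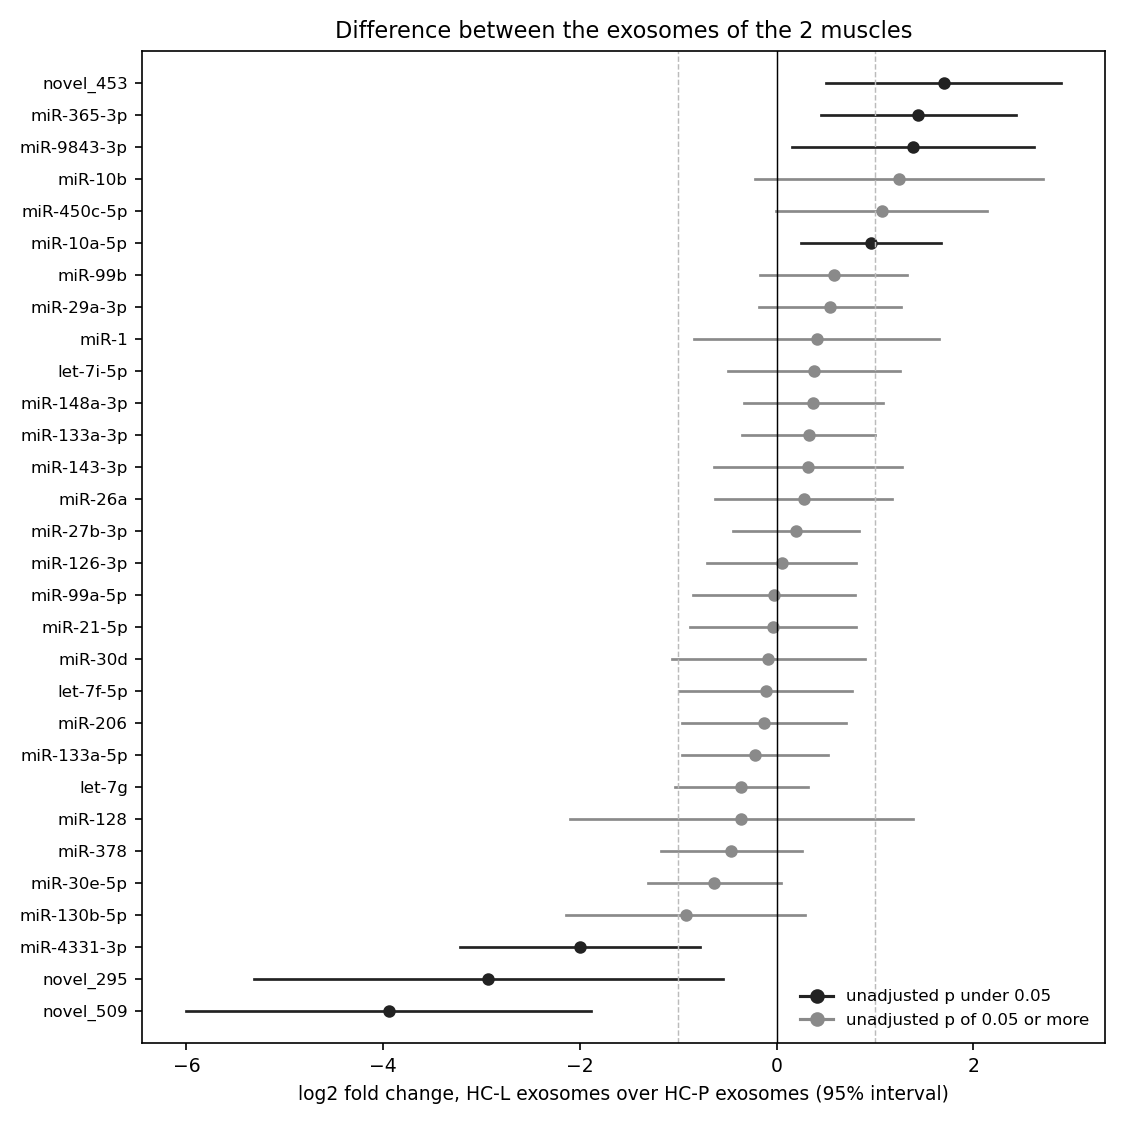
Points give the log2 fold change, HC-L exosomes over HC-P exosomes, with 95% intervals from edgeR, for the most abundant miRNAs, those with the smallest p or narrowest interval, and those in the authors' deposited table. Dark intervals have an unadjusted p under 0.05, none has an adjusted p under 0.05, and the dashed lines mark a log2 difference of 1.

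novel_509, predicted by the authors and without a miRBase name, had the lowest p. It had 6, 3 and 0 reads in the HC-L exosome libraries, against 33, 22 and 22 reads in the HC-P exosome libraries. In scaled CPM that was 11.3, 6.62 and 0 in HC-L, against 40.6, 129 and 144 in HC-P. The groups did not overlap by either scaling, and the shallow HC-P libraries held the highest CPM. The log2 fold change was -3.94 ± 0.90 (SE; 95% interval -6.00 to -1.88), with an unadjusted p of 0.00209 and an adjusted p of 0.322 by edgeR. The authors' deposited table lists it at -4.07 with an adjusted p of 0.00201, and the DESeq2 fit to the deposited counts gave the same values.

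miR-4331-3p, the pig miRNA named in the study's title, had 27, 30 and 26 reads in the HC-L exosome libraries and 84, 51 and 53 reads in the HC-P exosome libraries. In CPM of the library total, unscaled, this was 40.0, 47.5 and 94.4 in HC-L, against 87.5, 303 and 500 in HC-P, with HC-L replicate 3 above HC-P replicate 1. The 95% Wilson intervals of these shares were 27.5 to 58.2, 33.3 to 67.8 and 64.4 to 138 in HC-L, against 70.7 to 108, 230 to 398 and 382 to 654 in HC-P, so HC-L replicate 3 and HC-P replicate 1 were within counting error of each other. In scaled CPM the groups separated, with 50.7, 66.2 and 67.0 in HC-L, against 103, 298 and 346 in HC-P. The mean was 61.3 ± 9.17 scaled CPM in HC-L, against 249 ± 129 in HC-P (SD, n = 3 each). The log2 fold change was -2.00 ± 0.53 (SE; 95% interval -3.22 to -0.78), with an unadjusted p of 0.00515 and an adjusted p of 0.397 by edgeR. Same-numbered libraries gave -1.03, -2.17 and -2.37, all lower in HC-L. The authors' deposited table gives -2.07 with an adjusted p of 0.0672. Without HC-P replicate 1, the deepest library, the value was -2.40 with an adjusted p of 0.0460 by edgeR; with log depth as a covariate it was -1.36, adjusted p = 0.214.

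In muscle tissue miR-4331-3p was scarce, at 0.685 ± 0.0539 scaled CPM in HC-L tissue and 0.271 ± 0.0514 in HC-P tissue (SD, n = 3 each). The tissue log2 fold change was 1.20 (adjusted p = 0.556 by edgeR, 12-library fit). The exosome difference minus the tissue difference was -3.19, with an unadjusted p of 0.00283 and an adjusted p of 0.712 by edgeR. The tissue value, and with it this difference, rests on these low levels, and counting error in tissue was not worked out. The filter over 12 libraries can keep a miRNA through its exosome libraries alone. No miRNA of 252 passed that test of the difference between exosomes and tissue in edgeR. At an unadjusted p under 0.05 there were 8, and DESeq2 called 0 of 424, with 7 at an unadjusted p under 0.05.

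novel_295, a second predicted miRNA in the authors' deposited table, rested on a single library. It had 3, 3 and 7 reads in HC-L exosomes, against 141, 5 and 1 in HC-P exosomes. HC-P replicate 1 held nearly all of its reads, and HC-P replicate 3 lay below HC-L replicate 3 in scaled CPM. The log2 fold change was -2.93 ± 1.04 (SE; unadjusted p = 0.0216, adjusted p = 0.556 by edgeR), and without HC-P replicate 1 it no longer passed the filter.

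**Figure D3:**
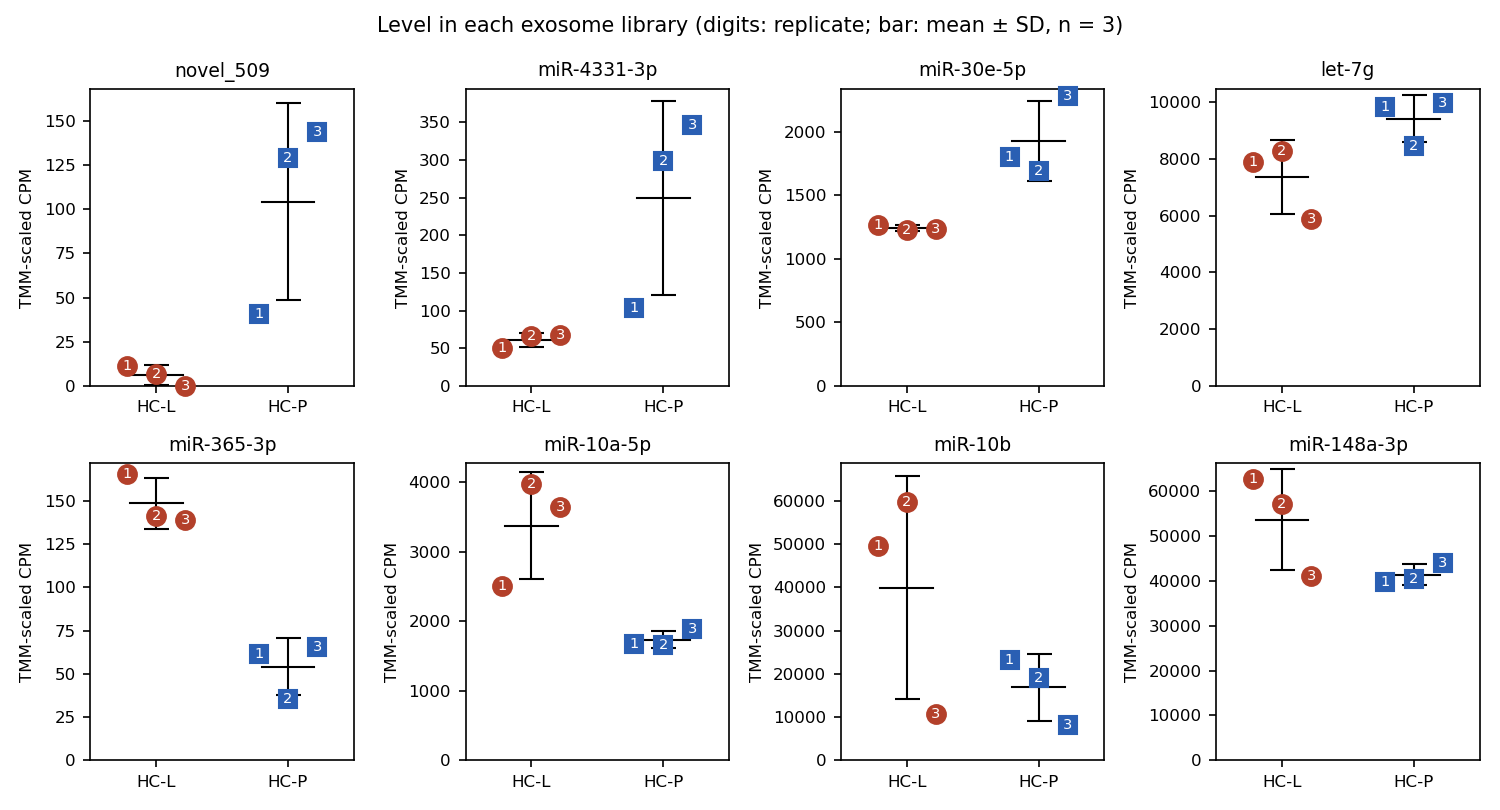
Scaled CPM of 8 miRNAs in each exosome library, HC-L (circles) left of HC-P (squares), with the replicate number in each symbol and the mean ± SD (n = 3) in black. The groups do not overlap for novel_509, miR-4331-3p, miR-30e-5p, let-7g, miR-365-3p or miR-10a-5p, and they overlap for miR-10b and miR-148a-3p.

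On the other side, 4 miRNAs had an unadjusted p under 0.05 with higher values in HC-L. miR-365-3p, encoded close to miR-193b, had 88, 64 and 54 reads in HC-L exosomes, against 50, 6 and 10 in HC-P exosomes. In scaled CPM it had 165, 141 and 139 in HC-L, against 61.5, 35.1 and 65.3 in HC-P, with no overlap. Its log2 fold change was 1.44 ± 0.43 (95% interval 0.45 to 2.44; unadjusted p = 0.00991, adjusted p = 0.420 by edgeR). In tissue its log2 fold change was -0.45, and the exosome difference minus the tissue difference was 1.90 (adjusted p = 0.956 by edgeR).

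The predicted miRNA novel_453 had 53, 32 and 27 reads in HC-L exosomes, against 20, 6 and 2 in HC-P exosomes. Scaled CPM was 99.6, 70.7 and 69.5 in HC-L, against 24.6, 35.1 and 13.1 in HC-P, again without overlap. Its log2 fold change was 1.70 ± 0.52 (95% interval 0.50 to 2.89; unadjusted p = 0.0109, adjusted p = 0.420 by edgeR). miR-9843-3p had 39, 18 and 16 reads in HC-L, against 14, 4 and 3 in HC-P, a log2 fold change of 1.39 ± 0.54 (unadjusted p = 0.0313, adjusted p = 0.688 by edgeR). The HC-L libraries of both were higher in all 3 same-numbered pairs, on counts of 2 to 53 reads.

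miR-10a-5p, encoded within a HOX gene cluster in human and mouse, rested on the most reads of the 4. It had 1334, 1799 and 1415 reads in HC-L exosomes, against 1352, 284 and 288 in HC-P exosomes. Scaled CPM was 2506, 3972 and 3644 in HC-L, against 1663, 1662 and 1880 in HC-P. The groups separated in scaled CPM but overlapped when divided by library totals alone. The log2 fold change was 0.96 ± 0.31 (95% interval 0.24 to 1.68; unadjusted p = 0.0145, adjusted p = 0.448 by edgeR), beside 0.73 in tissue. Its close relative miR-10b, from another HOX cluster, took 3.91%, 4.29% and 1.50% of reads in HC-L exosomes, against 1.97%, 1.94% and 1.19% in HC-P exosomes. HC-L was higher in each of the 3 same-numbered pairs, although replicate 3 of HC-L lay below replicates 1 and 2 of HC-P. The log2 fold change of miR-10b was 1.25 ± 0.64 (95% interval -0.22 to 2.71; adjusted p = 0.870 by edgeR). It was 0.74 without HC-L replicate 2, 1.67 without HC-L replicate 3 and 0.61 with log depth as a covariate.

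Summed over the miR-10, miR-99, miR-100 and miR-125 group, the share of reads was 5.11%, 5.61% and 5.06% in HC-L exosomes, against 3.75%, 3.54% and 3.63% in HC-P exosomes. Means were 5.26% ± 0.305 in HC-L, against 3.64% ± 0.107 in HC-P (SD, n = 3 each), and the groups did not overlap. Most of this sum in replicates 1 and 2 of each muscle was miR-10b, whose own shares overlapped, as given above. In replicate 3 miR-99a-5p outnumbered miR-10b, by 6091 to 4138 for HC-L and by 1619 to 1261 for HC-P. The log2 fold change of miR-99a-5p was -0.03. The separation of the sum therefore depends on adding these members and is not a separation of miR-10b. Of the 7 members tested, 0 passed. Their median log2 fold change was 0.37 with 5 positive, beside 0.07 and 85 of 154 positive over all miRNAs. miR-99b had 0.58 and miR-125a -0.13. Among the 22 lists, the summed share of the miR-17-92 list, described below, also did not overlap, and it was lower in HC-L. It was 0.0806%, 0.0798% and 0.111% in HC-L, against 0.129%, 0.122% and 0.163% in HC-P. No test was made of the summed shares.

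The other lists, whose medians are given beside 0.07 for all 154 miRNAs, also held no member that passed. The 8 muscle-enriched miRNAs had a median of 0.10 and together took 66.1%, 68.0% and 53.5% of reads in HC-L exosomes, against 64.7%, 66.5% and 54.7% in HC-P exosomes, so muscle-enriched miRNAs made up most reads of every library. Of this list, miR-486, which is also in the red cell list, had the highest value (0.74) and miR-208b the lowest (-0.38). miR-208b and miR-499-5p, which lie in introns of slow myosin genes, had log2 fold changes of -0.38 (95% interval -1.49 to 0.72) and -0.21 (-1.05 to 0.63). miR-499-5p took 0.262%, 0.241% and 0.721% of reads in HC-L, against 0.524%, 0.314% and 0.626% in HC-P, and the groups overlapped. The 9 let-7 members had a median of 0.02. The median of the muscle-enriched and let-7 lists, and that of miR-16 alone, the tested member of its family, turned negative under library totals. The sign of 19 of 22 list medians was the same under all 4 scalings. More list medians changed sign with log depth as a covariate, as given below.

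In the miR-30 family, 7 of 8 members tested had a negative log2 fold change, with a median of -0.35. Over all miRNAs 69 of 154 were negative. The 8 include both arms of miR-30a, miR-30c and miR-30e, so they are not independent of each other. miR-30e-5p, from an intron of NFYC, had 1268, 1227 and 1233 scaled CPM in HC-L exosomes, against 1804, 1691 and 2285 in HC-P exosomes. In scaled CPM the HC-L libraries differed by little, and all lay below the HC-P libraries. Divided by library totals alone the groups overlapped, with HC-L replicate 3 above HC-P replicates 1 and 2. The log2 fold change was -0.63 ± 0.30 (95% interval -1.31 to 0.05; unadjusted p = 0.0641, adjusted p = 0.870 by edgeR). The highest in the family was miR-30b-5p, at 0.06. let-7g, with 7889, 8292 and 5863 scaled CPM in HC-L, against 9825, 8461 and 9954 in HC-P, likewise did not overlap (log2 fold change -0.36). All 4 tested members of the miR-17-92 group, which acts in cell proliferation, had negative values, between -1.05 for miR-363 and -0.08 for miR-20a-5p. With log depth as a covariate 3 of the 4 were negative, with miR-20a-5p at 0.26 and miR-363 at -0.49, and without HC-L replicate 3 miR-20a-5p was at 0.12.

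The 4 tested members of the X-linked cluster of miR-424, miR-450, miR-503 and miR-542 were all positive, with a median of 0.94. This cluster is known from mouse to act in the cell cycle exit of muscle precursors. Over all 154 miRNAs, 85 were positive. miR-450c-5p had 466, 287 and 314 scaled CPM in HC-L exosomes, against 229, 193 and 78.3 in HC-P exosomes. Its groups did not overlap, and its log2 fold change was 1.07 ± 0.47 (95% interval -0.01 to 2.14; adjusted p = 0.870 by edgeR). miR-450b-5p, of the same cluster, had 0.22.

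**Figure D4:**
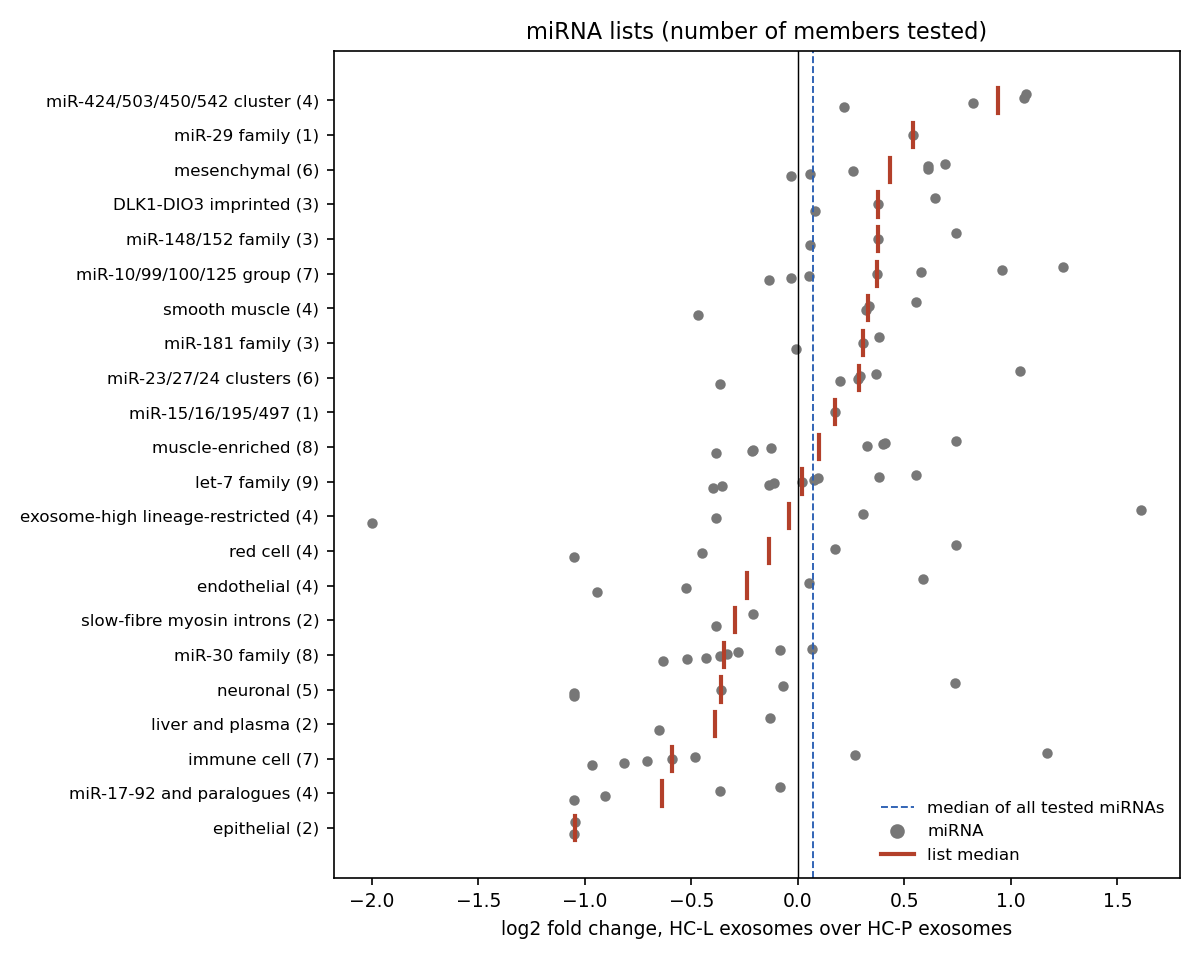
Each grey point is the log2 fold change, HC-L exosomes over HC-P exosomes, of a tested miRNA, by list, with the list median in red and the median of all 154 miRNAs dashed. List medians run from -1.05 (epithelial, 2 miRNAs) to 0.94 (the X-linked miR-424 cluster, 4 miRNAs).

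Marker miRNAs of other cell types were present in both groups. The smooth muscle list, led by miR-143-3p, took 0.829%, 0.986% and 3.61% of reads in HC-L exosomes, against 0.931%, 1.11% and 2.58% in HC-P exosomes. The endothelial list, led by miR-126-3p, took 0.935%, 0.872% and 2.86% in HC-L, against 1.04%, 1.59% and 2.18% in HC-P. Replicate 3 was the highest of each muscle in both lists, while the neuronal list, with 1.09%, 1.15% and 1.01% in HC-L, against 2.79%, 0.906% and 0.703% in HC-P, was lowest in replicate 3. Most reads of the neuronal list in every library were miR-128, which is abundant in muscle as well as brain. It held 6705, 6650 and 2291 reads in HC-L, against 25910, 1275 and 489 in HC-P. The neuronal share therefore does not show neuronal material. The liver and plasma list took 0.307%, 0.0711% and 0.208% in HC-L, against 0.0593%, 0.259% and 0.958% in HC-P, with no shared order. For miR-143-3p replicate 3 was the highest also among reads other than miR-1, of which it took 1.61%, 2.21% and 4.83% in HC-L, against 1.60%, 2.02% and 3.92% in HC-P. The medians were 0.33 for the 4 smooth muscle and -0.24 for the 4 endothelial miRNAs.

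The immune cell list took 0.0418%, 0.0529% and 0.170% of reads in HC-L exosomes, against 0.0436%, 0.154% and 0.281% in HC-P exosomes. Its 7 members had a median of -0.59, with 5 negative, and miR-150, a lymphocyte miRNA, was the lowest at -0.97. miR-155-5p, induced in activated immune cells, was the highest at 1.17. The 6 mesenchymal miRNAs had a median of 0.43, the 4 red cell miRNAs -0.14 and the 5 neuronal ones -0.36. Of the 4 red cell miRNAs, miR-486, miR-363 and miR-16 are also in other lists. Values of the 4 ran from -1.05 for miR-363 to 0.74 for miR-486, and miR-451 had -0.45. The mesenchymal list counts miR-199a-3p and miR-199b-3p separately, and the neuronal list miR-9 and miR-9-1, although the counts within each pair are equal. The medians and summed shares of these lists thus include the same reads more than once. Of the epithelial list, miR-182 and miR-200b were tested and had -1.05 each, on 8 to 24 reads per library. The liver miRNA miR-122-5p had 1967, 440 and 547 reads in HC-L, against 550, 431 and 975 in HC-P. Among defining markers that did not pass the filter, neuronal miR-124a had 0, 0 and 0 reads in HC-L, against 0, 0 and 1 in HC-P, and epithelial miR-141 had 2, 1 and 0 in HC-L, against 0, 0 and 0 in HC-P. Epithelial miR-205 had 12, 8 and 8 reads in HC-L, against 10, 3 and 7 in HC-P. In all, 7 of 12 epithelial, 8 of 9 immune cell and 7 of 13 neuronal miRNAs listed were in the table. The part of these other cell types in the differences above was not tested. The remaining lists had medians of 0.54 (miR-29a-3p alone, of the miR-29 family), 0.29 (6 of the miR-23, miR-27 and miR-24 clusters), 0.31 (3 of the miR-181 family), 0.38 (3 of the imprinted DLK1-DIO3 cluster), 0.37 (3 of the miR-148 and miR-152 family) and -0.39 (2 of the liver and plasma list).

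Reads of many miRNAs were not proportional to the library total, and the HC-P group holds the 2 shallowest libraries. HC-P replicate 1 had 9.05 times the reads of HC-P replicate 3, but the median ratio over the 127 tested miRNAs with a mean of at least 20 reads was 5.93. For HC-L replicate 1 over replicate 3 these values were 2.45 and 1.40. These ratios are of raw reads, and miR-1 and miR-206 together took most of every total. HC-P replicate 1 over replicate 3 was 10.9 for both miR-1 and miR-206, and the HC-L ratios were 4.42 and 1.51. TMM factors were 0.848 and 1.45 in HC-P replicates 1 and 3, and 0.790 and 1.41 in HC-L replicates 1 and 3. Scaled CPM thus already narrows the depth ratio between these libraries. Regressed on the library total over all 6 libraries, both on log2 scales, reads had a median slope of 0.82, where 1 is proportional. The slope was under 0.25 for 10 miRNAs and above 1 for 35.

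miR-4331-3p was among the flat ones, with a slope of -0.02. miR-150 had 134, 181 and 224 reads in HC-L exosomes, against 205, 162 and 186 in HC-P exosomes, a slope of -0.02. Its level in scaled CPM, 252, 400 and 577 in HC-L, against 252, 948 and 1214 in HC-P, was highest in the shallow HC-P libraries. miR-222, a vascular miRNA picked after its values were seen, had 26, 34 and 35 reads in HC-L, against 20, 25 and 23 in HC-P. By contrast miR-10b had a slope of 1.41 and miR-128 one of 1.58. miR-128 was lower in CPM in shallow libraries. The share of miR-10b did not follow depth throughout: HC-P replicate 2 was near HC-P replicate 1 and above HC-L replicate 3. The slopes take no account of muscle, and the 2 shallowest libraries are both HC-P, so depth and muscle cannot be told apart in them. With log depth as a covariate, the log2 fold change of miR-150 was -0.09, that of miR-221-3p 0.19 (without it -0.94) and that of miR-200b 0.08. Under the same covariate miR-365-3p had 1.39, miR-10a-5p 1.01 and novel_453 1.64, and novel_509 had -3.30. For miR-10b it was 0.61, against 1.25 without the covariate. The median over all miRNAs was then 0.19. List medians also moved: that of the immune cell list was 0.60 with the covariate, against -0.59 without it, that of the endothelial list 0.36 against -0.24, and that of the liver and plasma list 0.86 against -0.39. The sign also changed for the muscle-enriched (-0.09 against 0.10), let-7 (-0.13 against 0.02) and miR-181 (-0.04 against 0.31) lists. It changed as well for the red cell (0.12 against -0.14) and exosome-high lineage-restricted (0.79 against -0.04) lists. The miR-30 family stayed at 7 of 8 negative and the X-linked miR-424 cluster at 4 of 4 positive.

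**Figure D5:**
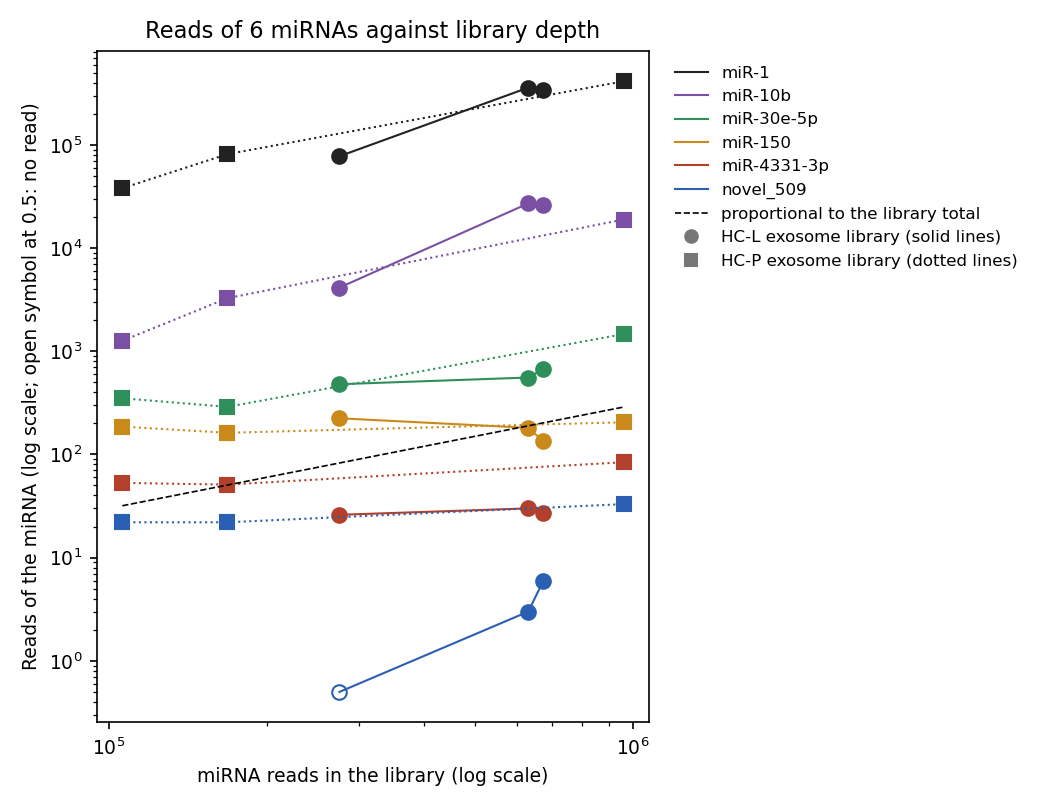
Reads of 6 miRNAs (log scale) against the miRNA reads of the library (log scale), with HC-L exosomes as circles and HC-P exosomes as squares, and an open symbol for no read. Over all 6 libraries miR-1 and miR-10b have slopes of 1.13 and 1.41, steeper than the dashed proportional line, though not between every pair of libraries. miR-150 and miR-4331-3p rise far less than that line or not at all within each muscle.

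The use of the 2 arms of a hairpin was compared for 18 hairpins with at least 60 reads of the less abundant arm over the 6 libraries, a minimum chosen after the values were seen. Of 53 hairpins with both arms in the table and a mean of at least 20 reads, 10 had no read of that arm and so gave no measured ratio. The same arm led in all 6 libraries for 14 of the 18. The leading arm varied between libraries for miR-145, miR-30e, miR-374a and miR-423. The log2 ratio, 3p over 5p, of miR-423 was -0.63, -0.13 and 0.83 in HC-L exosomes, against -0.09, -0.18 and 0.47 in HC-P exosomes, so both muscles held both orders. The median difference over the 18, HC-L minus HC-P, was -0.03, and the ratios of 3 did not overlap. For miR-133a the ratio was 4.99, 4.55 and 5.03 in HC-L exosomes, against 4.46, 4.36 and 4.10 in HC-P exosomes. For miR-7134 the mean was 3.72 ± 0.21 in HC-L, against 4.17 ± 0.17 in HC-P (SD, n = 3 each), and for miR-126 it was 7.10 ± 0.40 in HC-L, against 7.49 ± 0.18 in HC-P. No test was made across hairpins.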

How the data were processed

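Small RNA libraries were made with the TruSeq Small RNA kit, per the labels' protocols. The adapter trimming, aligner, genome build, miRNA database release and counting rule, and the test behind the authors' comparison, are not stated in the sources at hand. The deposited table holds a read count per mature miRNA, and the authors' TPM, which equalled the count over the library total times 1e+06. The authors' comparison table holds a group signal (a mean of normalised counts), a log2 fold change and a p-value; these deposited values are named as such where printed. No column lacked a sample.

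Counts were fitted with edgeR 4.0.16 in R 4.3.3: filterByExpr by group (154 miRNAs kept), TMM scaling, the quasi-likelihood test and Benjamini-Hochberg adjustment over all miRNAs kept, called under 0.05. Common dispersion was 0.229. DESeq2 1.42.0 was an alternative. The 12-library fit kept 252 miRNAs. Code was tested on simulated data. Shares have 95% Wilson intervals, which cover counting error only. The rule for named miRNAs took the 15 most abundant, up to 5 of smallest p in each direction, the 10 narrowest intervals, the authors' table, miR-4331-3p and the extremes of each list. miR-222, the arm ratios, miR-196a and miR-196b-5p were picked after their values were seen. Members, lists and tests were chosen with earlier results of these data known, and the list of exosome-high lineage-restricted miRNAs was picked from these libraries (4 tested, median -0.04).

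The labels number replicates alike in both muscles. Over 154 miRNAs, deviations from the group means correlated at 0.35, 0.36 and 0.41 between same-numbered libraries and at -0.35 to 0.13 between others, so numbers were treated as pairs in an alternative fit. These correlations do not establish pairing. Depth falls from replicate 1 to replicate 3 in both muscles, and deviations within a group cancel, which lowers the correlations between other numbers. miR-199a-3p and miR-199b-3p had equal counts, as did miR-9 and miR-9-1, and cannot be told apart. Alternatives were other scalings, filters, depth as a covariate, thinning to the smallest total, and leaving out each library.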

Additional observations from a re-analysis of the deposited data

How the results depend on the processing

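The count of 0 called miRNAs changed in 4 settings. DESeq2 called 1 (novel_509, adjusted p = 0.00201). edgeR without a filter called 2 (novel_509, -3.89, adjusted p = 0.000659; novel_295, adjusted p = 0.0299). Without HC-P exosome replicate 1, edgeR called 1 (miR-4331-3p), and leaving out each library in turn gave 0 to 1. DESeq2 on the 154 miRNAs kept, chosen after seeing the data, called 2 (novel_509, adjusted p = 0.000827; miR-4331-3p, adjusted p = 0.0195). With the replicate block edgeR called 0 (smallest adjusted p 0.329), with 13 at an unadjusted p under 0.05, so pairing changed no call. Same-numbered pairs, added after seeing the data, gave exact sign-flip p-values of 0.25 to 1 for the 5 library values, with mean differences as unpaired (-10.8 for detected miRNAs). Without replicate 3 of both muscles, also chosen after seeing the data, edgeR called 0, with 15 at an unadjusted p under 0.05. Over the alternatives, the log2 fold change of miR-4331-3p ran from -2.40 to -1.36, novel_509 from -4.75 to -3.11, miR-365-3p from 1.04 to 1.59, miR-10a-5p from 0.59 to 1.13, miR-10b from 0.61 to 1.67 and miR-128 from -0.95 to 1.04. Thinned to the smallest total, novel_509 did not pass the filter, so its range leaves that setting out. Of 63 named miRNAs, 32 kept 1 sign in every setting run. The difference between exosomes and tissue gave 0 calls in each alternative. Depth and 3 libraries per group both limit precision: HC-P replicates 2 and 3 hold 168341 and 106040 reads, the 95% intervals reached a median of 1.13 to either side on the log2 scale, and a count of 0 allows up to 28.3 CPM in the shallowest library.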

Other observations

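miR-196a and miR-196b-5p, which like miR-10a-5p and miR-10b lie in HOX gene clusters in human and mouse, were picked after their values were seen. miR-196a had 50, 68 and 1 reads in HC-L exosomes and 184, 36 and 32 in HC-P exosomes. In scaled CPM it had 93.9, 150 and 2.58 in HC-L, against 226, 211 and 209 in HC-P. The HC-P libraries were alike despite their 9.05-fold range of depth, and HC-L replicate 3 stood far below the other two. miR-196b-5p had 130, 81.7 and 0 scaled CPM in HC-L, against 150, 135 and 131 in HC-P. Their log2 fold changes were -1.38 and -0.96 in exosomes and -1.92 and -2.13 in tissue. None of these passed the adjusted threshold in edgeR.

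Detection in 1 muscle only rested on few reads. Of the 26 miRNAs with reads in HC-L exosomes alone, 24 had 3 or fewer, and the most was 12, for novel_529, all in HC-L replicate 3. Of the 35 with reads in HC-P exosomes alone, 29 had 3 or fewer, and the most was 6, for novel_452.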
